A study of Mus musculus with 2 samples.

Results

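Resting hair follicle stem cells of the bulge were split by their own level of Lgr5 RNA, and the 25% of cells with the most Lgr5 were set against the 25% with the least. The split gave 212 Lgr5-high and 212 Lgr5-low cells of the 851 unwounded cells kept, out of 5797 cells kept over all conditions. Cells were ranked by Lgr5 UMIs (unique molecular identifiers, counted transcripts) relative to all UMIs of the cell (CPM, counts per 1e6 UMIs), over both genotypes together, and the 427 cells between the groups were left for comparison. Lgr5 itself chose the cells, so its values are given as a description and support nothing. All folds between the groups are likewise descriptions of 1 capture.

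LGR5 is a receptor for R-spondins, secreted proteins that raise WNT signalling by keeping the ligases ZNRF3 and RNF43 from removing WNT receptors. In mouse skin Lgr5 marks stem cells of the lower bulge and hair germ, the part of the resting follicle nearest the dermal papilla, and these cells feed the next round of hair growth. The bulge as a whole is held by CD34, keratin 15 and the transcription factor SOX9, and its outer layer contacts a basement membrane where nerves and muscle attach. The cells here were sorted as one bulge population, so the Lgr5 split asks how far that population is uniform.

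The unwounded Phgdh fl/fl pool held 588 of these cells and the unwounded Phgdh +/+ pool held 263. Both came from C57B6/J mice that also carried Sox9-CreER and the R26-LSL-YFP reporter, so the +/+ cells had the Cre and the reporter too, and YFP marks only cells in which the Sox9-driven Cre had acted. Males and females were pooled, and age and the number of animals are not given in the sources used here. Unwounded cells were sorted as live, CD140a-, CD117-, CD31-, CD45- and SCA1-, with high integrin-α6 and with CD34, CD200 and YFP. Wounded skin of both genotypes, taken 3 and 5 days after injury, gave 521 fl/fl and 1398 +/+ cells and then 1506 fl/fl and 1521 +/+ cells, sorted without gates on SCA1, CD34 and CD200. The 6 conditions were hashtagged and captured together, with 1 pool per condition. No test between groups was therefore possible. Intervals are 95% intervals for counting error alone, and "higher" and "lower" describe these cells.

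The condition of a cell rests on its hashtag, and the tags of both unwounded pools are shown because every genotype comparison rests on telling them apart. Each was 15 bases long, 5′ to 3′.
CMO302, unwounded fl/fl: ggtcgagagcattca
CMO301, unwounded +/+: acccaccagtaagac

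The Lgr5-high group began at 840.1 CPM, with 839.8 CPM in the next cell outside it. The Lgr5-low group ended at 138.2 CPM, with 140.2 CPM in the next cell. At the median depth of 7324 UMIs a single UMI was worth 136.5 CPM, so the cuts are coarse. Removing 1 Lgr5 UMI would have taken 34 of the Lgr5-high cells below their cut, and adding 1 would have taken 142 of the Lgr5-low cells above theirs. Lgr5 (ENSMUSG00000020140, chromosome 10, 115450314 to 115587780 in GRCm38.p6) had 10.5 UMIs in the median Lgr5-high cell and no UMI in 164 of the Lgr5-low cells. Summed over cells, Lgr5 stood at 1668 CPM in Lgr5-high and 28.15 CPM in Lgr5-low cells, with 293.3 and 622.1 CPM in the lower and the upper middle group (groups 2 and 3 of 4). The highest cell, of the +/+ pool, had 79 Lgr5 UMIs of 5699.

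**Figure D1:**
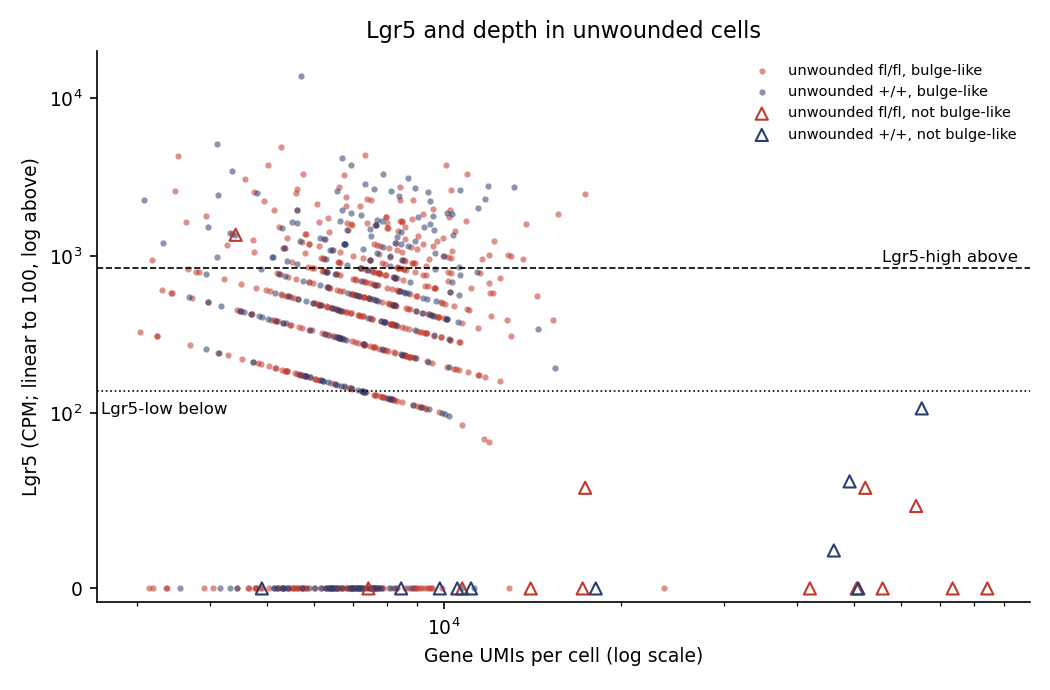
Lgr5 CPM of each of the 851 unwounded cells (vertical axis, linear up to 100 CPM and log above) against its total UMIs (horizontal axis, log scale), with fl/fl and +/+ cells marked apart, triangles for the cells without a bulge majority of marker UMIs, and the cuts of both groups as lines. Lgr5-high cells lie at or above 840.1 CPM and Lgr5-low cells at or below 138.2 CPM, and the cells of most UMIs lie in the low group.

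Lgr5 varied more between bulge-like cells than Cd34, 1 of the markers used to sort them. After each of 828 bulge-like cells (defined next) was thinned to 3000 UMIs, the variance of Lgr5 was 4.21 times its mean of 2.064 UMIs per cell, where counting alone gives a ratio near 1. Cd34, at a mean of 1.764 UMIs, had a ratio of 1.419. The keratin gene Krt24, at a mean of 1.715 UMIs, had a ratio of 2.812. These 3 genes had similar means, so the ratios can be read side by side. Of the other genes measured this way, at other means, Krt15 and Robo2 had larger ratios than Lgr5, 8.254 and 7.578. The rest had smaller ones, the largest of them 3.903 for Myoc and 3.817 for Postn.

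The label held for nearly all cells but not for every one. Counting UMIs of a bulge list (Cd34, Krt15, Sox9, Nfatc1, Tcf7l1 and others, without Lgr5) against lists for suprabasal, upper follicle and wound keratins, 828 cells had a bulge majority and 23 did not. Of these 23, 22 were in the Lgr5-low group, 12 fl/fl and 10 +/+, and 1 was in the Lgr5-high group. The 22 were deep, with a median of 30066 UMIs, and held 35.79% of all UMIs of the Lgr5-low group. The 23 cells had 50.82 CPM of Cd34, against 587.3 CPM in the 828 bulge-like cells. They had 17250 CPM of Krt14, against 3274 CPM, and 1467 CPM of the upper follicle defensin gene Defb6, against 6.659 CPM. Lgr5 had no UMI in 16 of them. They were singly hashtagged, with a median of 97.84% of hashtag UMIs from 1 tag, against 86.93% in bulge-like cells. Whether they are cells that passed the gate, doublets within a pool or something else was not tested. The counts of called genes, the leading genes and the gene lists are therefore given over all unwounded cells and over bulge-like cells alone, where the groups were formed again and held 207 cells each. The Lgr5-high bulge-like cells (126 fl/fl and 81 +/+) stood at 858.8 CPM or more. The Lgr5-low bulge-like cells (139 fl/fl and 68 +/+) stood at 162.1 CPM or less, and 148 of them had no Lgr5 UMI.

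Depth and quality were close between the groups once those cells were left out. Among bulge-like cells the median depth was 7496 UMIs in Lgr5-high and 7068 UMIs in Lgr5-low cells, and the median mitochondrial share was 5.054% and 4.849%. Ribosomal protein genes took 16.41% of UMIs in Lgr5-high cells and 18.21% in Lgr5-low cells, with 18.43% and 18.48% in the lower and the upper middle group. Malat1, a nuclear RNA, stood at 19830 CPM in Lgr5-high and 17640 CPM in Lgr5-low cells, and Neat1, another, at 1427 and 1443 CPM. The part of these shares in the results below was not tested.

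Over all cells 519 of 6569 genes of at least 20 CPM were at least 1.5-fold higher in Lgr5-high than in Lgr5-low cells in both the fl/fl and the +/+ pool (7.9%), and 414 were lower in both (6.3%). Scaling by TMM factors instead of total UMIs turned this balance round, with 363 genes higher and 535 lower. Among bulge-like cells 216 of 6508 genes were higher (3.32%) and 102 lower (1.57%), with 165 higher and 121 lower under TMM scaling. The shared higher genes numbered 134, or 25.82% of the 519 and 62.04% of the 216. The shared lower genes numbered 51, or 12.32% of the 414 and 50% of the 102. Most of the genes called lower over all cells were thus not called without the 23 cells.

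The genes lowest in Lgr5-high cells over all cells drew most of their Lgr5-low UMIs from 5 cells each. The duct keratin Krt77 had 0.62 CPM in Lgr5-high and 290.9 CPM in Lgr5-low cells, and 98.4% of the Lgr5-low UMIs came from 5 cells. Defb6 had 5.59 CPM in Lgr5-high and 533.0 CPM in Lgr5-low cells, and 99.0% came from 5 cells. The other genes picked by the same rule were S100a9, Ifi202b, Nrg1, Areg, Stfa1, Spink5, Csta1, Hbegf, Cst6 and Sprr2h, of the barrier, of defence and of EGF receptor signalling, and 5 cells held at least 76.3% of the Lgr5-low UMIs of each. None of these 12 genes was among the 12 lowest in bulge-like cells. Krt14, which basal keratinocytes express at high levels, stood at 3344 CPM in Lgr5-high and 8302 CPM in Lgr5-low cells over all cells, a log2 fold of -1.31, and at 3309 and 3210 CPM in bulge-like cells, a log2 fold of 0.04.

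Bulge identity genes showed the same dependence. Over all cells 5 of 23 measured genes of the list were called higher in Lgr5-high cells, against 7.9% of all genes, 0 were called lower, against 6.3%, and the median log2 fold was 0.47, against 0.08 over all genes. In bulge-like cells 0 of 23 were called in either direction, against 3.32% of all genes called higher and 1.57% lower. The median there was 0.00, against 0.05 over all genes. The UMIs of this list helped to choose the bulge-like cells, so its values there are a description and support nothing. Cd34, the sialomucin used in the sort, had 552.3 CPM in Lgr5-high and 560.8 CPM in Lgr5-low bulge-like cells, a log2 fold of -0.02 (-0.16 to 0.12). Krt15, the keratin of bulge basal cells, had 13880 and 15420 CPM, a log2 fold of -0.15. Sox9, which keeps bulge cells in the follicle lineage and drives the Cre here, had 211.4 and 224.6 CPM, a log2 fold of -0.09 (-0.31 to 0.14). Krt24 was the marker that differed most, at 603.7 CPM in Lgr5-high and 444.5 CPM in Lgr5-low cells, with log2 folds of 0.64 in fl/fl and 0.11 in +/+ cells. The bulge-like groups differed in Lgr5, which formed them, while no gene of the list that helped to choose these cells was called.

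**Figure D2:**
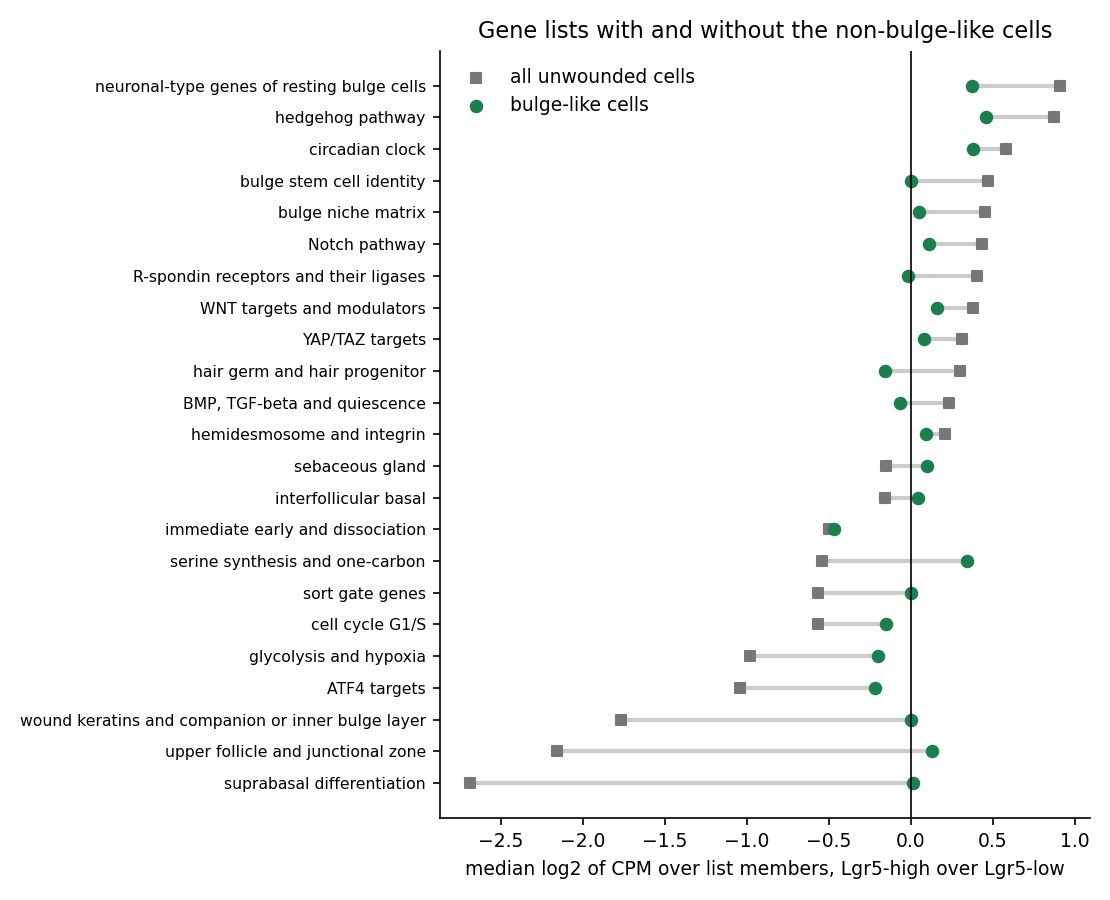
Median log2 fold (Lgr5-high over Lgr5-low, horizontal axis) of each gene list, over all unwounded cells and over bulge-like cells alone. The suprabasal list has a median of -2.69 over all cells and 0.01 in bulge-like cells, and the bulge identity list 0.47 and 0.00. Both lists helped to choose the bulge-like cells.

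In bulge-like cells, and above a floor of 50 CPM, the folds highest in Lgr5-high cells were those of Sox5, Myoc and Slit3. Sox5 (ENSMUSG00000041540, chromosome 6, 143828425 to 144782287), an SOXD transcription factor without a transactivation domain, had 96.14 CPM in fl/fl and 143.9 CPM in +/+ Lgr5-high cells, against 20.78 and 23.09 CPM in Lgr5-low cells of the same pools. Both Lgr5-high pool values lay above both Lgr5-low ones, and the log2 fold was 2.41 (1.86 to 3.00). Genes were named for the same sign in both pools, so this order is no support. Sox5 had a UMI in 59 of 207 Lgr5-high and 14 of 207 Lgr5-low cells.

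Myoc (chromosome 1, 162639150 to 162649694) encodes myocilin, a secreted glycoprotein best known from the eye. It had 187.2 CPM in fl/fl and 309.5 CPM in +/+ Lgr5-high cells, against 53.43 and 71.37 CPM in Lgr5-low cells, a log2 fold of 1.98 (1.64 to 2.33). The number of cells with a Myoc UMI differed less than its level, at 58 Lgr5-high and 40 Lgr5-low cells, and 5 cells held 32.6% of the Lgr5-high and 31.8% of the Lgr5-low UMIs. Slit3 (chromosome 11, 35121456 to 35708507), a secreted guidance ligand of ROBO receptors, had 278.2 CPM in fl/fl and 314.6 CPM in +/+ Lgr5-high cells, against 112.8 and 113.3 CPM in Lgr5-low cells. Its log2 fold was 1.37 (1.11 to 1.63), with a UMI in 111 Lgr5-high and 54 Lgr5-low cells. These 3 genes therefore differed in different ways, Sox5 and Slit3 mainly in how many cells had a UMI and Myoc more in the level per cell.

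The other 9 higher genes had log2 folds between 1.10 and 1.31. Htra1, a secreted serine protease that cleaves matrix proteins, had 137.1 CPM in Lgr5-high and 55.14 CPM in Lgr5-low cells. Thbs1, a matrix glycoprotein that can activate latent TGF-beta, had 165.7 and 74.65 CPM. Csgalnact1, which starts chondroitin sulfate chains, had 132.7 and 61.87 CPM. These 3 genes act outside the cell or on matrix. Slc39a8, a transporter of zinc and manganese, had 123.1 CPM in Lgr5-high and 50.44 CPM in Lgr5-low cells. Frmd4b, a scaffold protein, had 408.2 and 186.9 CPM, and Adcy9, which makes cyclic AMP, had 92.68 and 43.04 CPM. Samd12, Aff3 and Mbtd1 complete the group, with log2 folds of 1.15, 1.14 and 1.12.

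Among genes of at least 50 CPM the lowest folds in Lgr5-high cells were those of Robo2, Ltbp1 and Trpm3. Robo2 (ENSMUSG00000052516, chromosome 16, 73891976 to 75447443), a receptor for SLIT proteins, had 21.48 CPM in fl/fl and 127.2 CPM in +/+ Lgr5-high cells, against 381.9 and 407.2 CPM in Lgr5-low cells. Both Lgr5-low pool values lay above both Lgr5-high ones, an order that the naming rule favours, and the log2 fold was -2.66 (-2.99 to -2.35). Robo2 had a UMI in 26 Lgr5-high and 89 Lgr5-low cells, and 5 cells held 51.6% of the Lgr5-high UMIs. Its log2 fold was -4.15 in fl/fl cells and -1.68 in +/+ cells, intervals that do not overlap (-4.86 to -3.52 and -2.08 to -1.29).

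Ltbp1 (chromosome 17, 75005480 to 75392512) tethers latent TGF-beta to matrix fibres. It had 15.34 CPM in fl/fl and 76.97 CPM in +/+ Lgr5-high cells, against 180.1 and 197.3 CPM in Lgr5-low cells, a log2 fold of -2.26 (-2.69 to -1.86). Trpm3 (chromosome 19, 22137797 to 22995410), a calcium-permeable channel opened by heat and neurosteroids, had 22.50 and 45.18 CPM in Lgr5-high cells, against 159.3 and 102.8 CPM in Lgr5-low cells of fl/fl and +/+. Its log2 fold was -2.18 (-2.66 to -1.73). Of these leading genes, Robo2, Ltbp1 and Trpm3 all had the larger difference in fl/fl cells. Among Lgr5-high cells 5 cells held 52.5% of the Ltbp1 UMIs and 71.4% of the Trpm3 UMIs, so a few cells weigh on these values.

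Among the other 9 lower genes, Egfl6 (chromosome X, 166523007 to 166585716) encodes a bulge basement membrane protein that in mouse skin lies where the arrector pili muscle and sensory nerve endings attach. Egfl6 had 49.09 CPM in fl/fl and 45.18 CPM in +/+ Lgr5-high cells, against 103.9 and 125.9 CPM in Lgr5-low cells, a log2 fold of -1.22 (-1.63 to -0.82). Both Lgr5-high pool values lay below both Lgr5-low ones, an order that the naming rule favours. Single cells overlapped, with an Egfl6 UMI in 26.1% of Lgr5-high and 42.5% of Lgr5-low cells. Unlike Robo2 UMIs, those of Egfl6 were spread, and the 5 top cells held 20% in Lgr5-high and 15.2% in Lgr5-low cells. Sorcs3, a sorting receptor best known from neurons, had 70.46 CPM in Lgr5-high and 190.3 CPM in Lgr5-low cells. Krt17, a keratin of the upper follicle and of stressed epidermis, had 235.5 and 528.6 CPM, with log2 folds of -0.80 in fl/fl and -1.80 in +/+ cells. Serpinb11, a serpin family member, had 31.74 and 127.8 CPM. The remaining genes were Nrep, H2-K1, Steap4, Ank and Klf2, with log2 folds between -1.74 and -1.16.

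**Figure D3:**
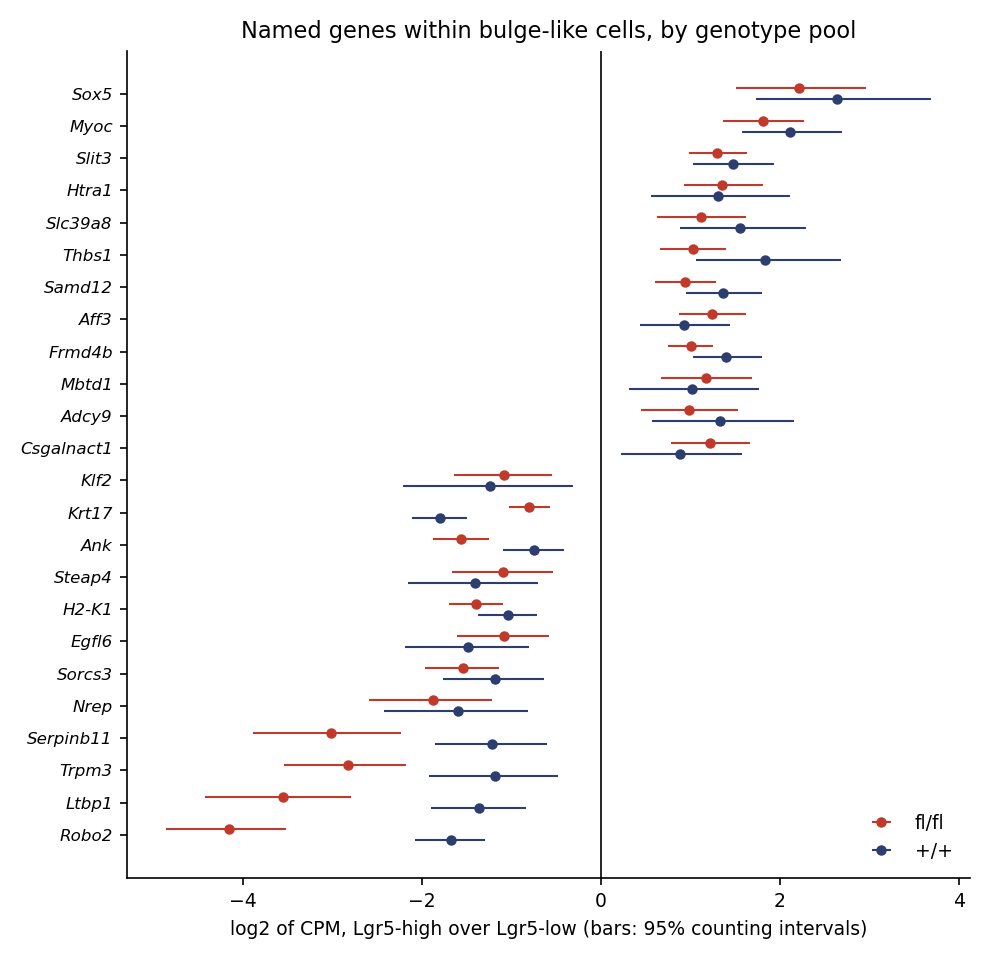
Log2 fold (Lgr5-high over Lgr5-low, horizontal axis) of the 12 highest and 12 lowest genes in bulge-like cells, with fl/fl above +/+ for each gene and bars for 95% counting intervals. All 24 genes have the same sign in both pools because the naming rule required it. Robo2 and Ltbp1 reach -4.15 and -3.55 in fl/fl, against -1.68 and -1.36 in +/+.

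The middle groups, which took no part in the naming, show whether levels moved step by step with Lgr5. From the Lgr5-low to the Lgr5-high group Sox5 had 21.52, 51.91, 70.40 and 114.3 CPM, and Myoc had 59.18, 143.6, 196.9 and 233.6 CPM. Both therefore stood in the order of Lgr5. Robo2 had 390.0, 100.6, 32.59 and 61.57 CPM, and Ltbp1 had 185.6, 43.58, 22.81 and 38.72 CPM. The largest step of both was between the Lgr5-low group and the next, and the upper middle group was the lowest of all. Egfl6 had 111.0, 57.04, 48.24 and 47.61 CPM, a step at the bottom and then little difference. Klf2 broke the order, with 83.39, 137.1, 61.92 and 37.45 CPM. Of the 216 higher genes 104 stood in steady order over all 4 groups, and of the 102 lower genes 40 did.

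**Figure D4:**
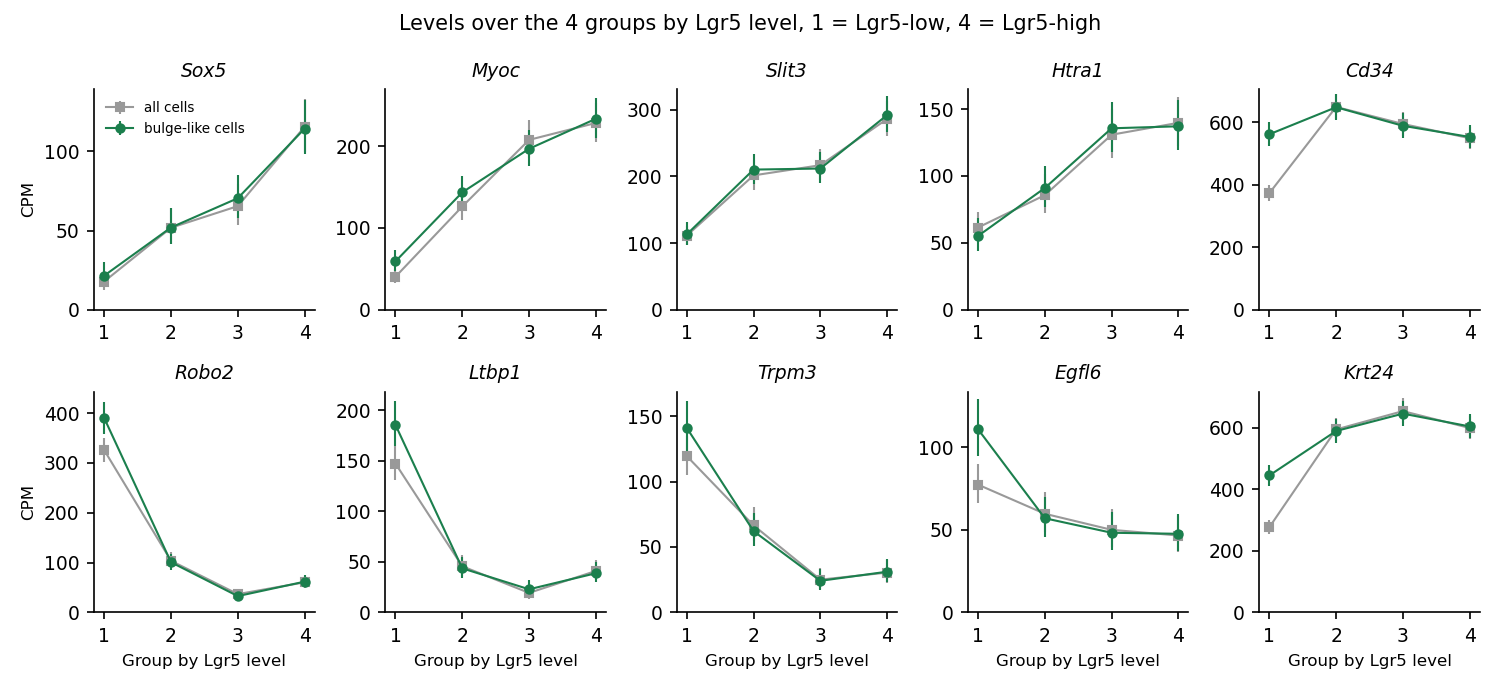
CPM (vertical axis, from 0) of 8 leading genes and of Cd34 and Krt24 in the 4 groups by Lgr5 level, lowest to highest, over all unwounded cells (grey) and in bulge-like cells (green), with 95% Poisson intervals. Sox5 and Myoc stand higher in each successive group, while Robo2 and Ltbp1 drop mainly between the first 2 groups, to 100.6 and 43.58 CPM.

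The leading lower genes were found together in the same Lgr5-low cells. Of the 89 Lgr5-low bulge-like cells with a Robo2 UMI, 62.9% (95% Clopper-Pearson interval 52.0 to 72.9) also had Ltbp1, against 15.3% (9.30 to 23) of the 118 without Robo2. The median depths were 6941 and 7206 UMIs, so the cells with Robo2 were not the deeper ones. Trpm3 had a UMI in 50.6% of the cells with Robo2 and 22.9% of those without, and Egfl6 in 55.1% and 33.1%. Cells with UMIs of at least 2 of Robo2, Ltbp1 and Trpm3 made up 36.2%, 12.6%, 6.28% and 5.31% of the groups from Lgr5-low to Lgr5-high. The leading higher genes were less bound to each other. Of the 59 Lgr5-high cells with a Sox5 UMI, 66.1% (52.6 to 77.9) had Slit3, against 48.7% (40.4 to 57.0) of the 148 without. Myoc was in 23.7% (13.6 to 36.6) of cells with Sox5 and 29.7% (22.5 to 37.8) of those without. Cells with at least 2 of Sox5, Myoc and Slit3 made up 7.73%, 18.4%, 27.1% and 32.4% of the groups. Cells with at least 2 genes of both triplets numbered 1, 1, 3 and 2 of 207. The triplets were chosen from these cells, so the counts describe them only.

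**Figure D5:**
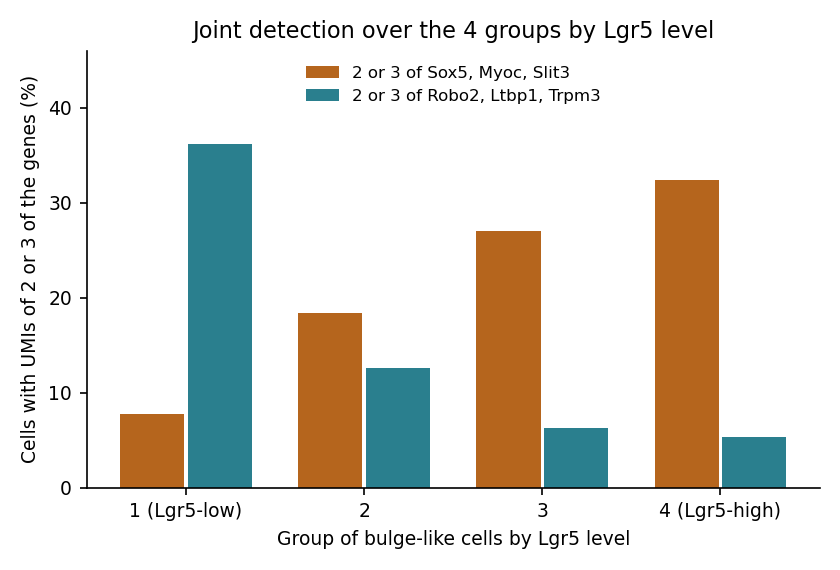
Share of bulge-like cells (percent, vertical axis) with UMIs of at least 2 of Sox5, Myoc and Slit3, and of at least 2 of Robo2, Ltbp1 and Trpm3, in each group by Lgr5 level from lowest to highest, with no error bars. The share for Sox5, Myoc and Slit3 runs up to 32.4%, and that for Robo2, Ltbp1 and Trpm3 is 36.2% in the Lgr5-low group.

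Free RNA in the droplets can add to such shares, and shares in wounded cells are given beside them as a description. With each cell thinned to 3000 UMIs, Sox5 had a UMI in 18.4% of Lgr5-high and 3.87% of Lgr5-low bulge-like cells, and in 5.50% of wounded cells. Myoc had one in 19.8% and 12.6%, and in 0.566% of wounded cells. Robo2 had one in 8.21% of Lgr5-high and 31.4% of Lgr5-low cells, and in 16.0% of wounded cells. Unthinned, the shares for Sox5 were 28.5% and 6.76%, those for Myoc 28.0% and 19.3%, and those for Robo2 12.6% and 43.0%, at median depths of 7496 and 7068 UMIs. The Sox5 share of Lgr5-low cells and the Robo2 share of Lgr5-high cells lay below those of wounded cells. Wounded cells hold RNA of these genes themselves, with Robo2 at 316.5 CPM in fl/fl cells with Lgr5 at 5 days. They are therefore no measure of free RNA, and whether these low shares are expression was not tested.

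The ligand gene Slit3 and the receptor gene Robo2 stood on opposite sides of the split. In a list of 10 such genes drawn up after their values were seen, 5 were measured in bulge-like cells, of which 2 were called higher and 1 lower, against 3.32% and 1.57% of all genes. Slit3 and Srgap1, a GTPase-activating protein that acts downstream of ROBO, were higher in Lgr5-high cells, and Robo2 was lower. Srgap1 had 77.73 CPM in fl/fl and 71.95 CPM in +/+ Lgr5-high cells, against 26.72 and 25.19 CPM in Lgr5-low cells, a log2 fold of 1.53 (0.99 to 2.09). Robo1 stayed under 20 CPM, at 10.16 CPM in Lgr5-high and 10.76 CPM in Lgr5-low cells. Of 8 SOX genes listed in the same way, Sox5 and Sox9 alone were measured, and Sox5 alone was called.

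Genes of MHC class I, which present peptides to CD8 T cells and natural killer cells, were lower in Lgr5-high cells. In a list of 13 genes drawn up after H2-K1 had been seen, 5 of 8 measured were called lower in bulge-like cells, 0 were called higher, and the median log2 fold was -0.88, against 0.05 over all genes and 1.57% of genes called lower. H2-K1 (ENSMUSG00000061232, chromosome 17, 33996012 to 34000619), a classical heavy chain, had 128.9 CPM in fl/fl and 214.2 CPM in +/+ Lgr5-high cells, against 337.4 and 440.8 CPM in Lgr5-low cells. Both Lgr5-high pool values lay below both Lgr5-low ones, an order that the naming rule favours. From the Lgr5-low to the Lgr5-high group H2-K1 had 370.5, 221.7, 183.8 and 161.2 CPM. H2-D1, the other classical heavy chain of this strain, had 149.2 CPM in Lgr5-high and 320.8 CPM in Lgr5-low cells, and B2m, the light chain, had 152.3 and 323.5 CPM. The nonclassical genes H2-Q7 and H2-T23 had log2 folds of -2.34 and -0.66. Tap2, part of the peptide transporter, had 25.39 and 21.52 CPM and was not called. H2 genes are near-copies of each other that counting may split, so their single values are uncertain, while B2m has no such copy. Free RNA held H2-K1 at 330.0 CPM, near its level in Lgr5-low cells, and its part in the difference was not tested. Of 11 immune cell markers 10, Ptprc among them, were at 0 in both groups, and the list summed to 0.63 CPM in Lgr5-high and 0 CPM in Lgr5-low cells.

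The promoters of the 3 heavy chain genes are printed because these genes moved together. Each runs from 250 bases before to 50 bases after the start site, 5′ to 3′ on the strand of the gene (RefSeq, GRCm38.p6). Capitals mark the letters GAANNGAAA, a form of the interferon-stimulated response element, searched on both strands and here read on the opposite strand. Other forms of the element were not searched.
H2-K1, chr17:34000298-34000597, minus strand: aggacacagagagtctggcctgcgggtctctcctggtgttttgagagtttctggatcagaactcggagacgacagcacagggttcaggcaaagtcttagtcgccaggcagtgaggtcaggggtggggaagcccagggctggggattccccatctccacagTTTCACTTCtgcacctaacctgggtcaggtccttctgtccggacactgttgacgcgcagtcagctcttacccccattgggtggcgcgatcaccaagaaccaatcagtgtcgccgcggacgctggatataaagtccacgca
H2-D1, chr17:35262844-35263143, plus strand: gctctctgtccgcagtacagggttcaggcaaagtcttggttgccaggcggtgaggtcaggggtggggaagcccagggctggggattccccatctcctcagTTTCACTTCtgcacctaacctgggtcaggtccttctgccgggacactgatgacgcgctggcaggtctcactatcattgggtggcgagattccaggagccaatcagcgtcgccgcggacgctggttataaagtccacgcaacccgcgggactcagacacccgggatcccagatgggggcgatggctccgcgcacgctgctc
H2-Q7, chr17:35438905-35439204, plus strand: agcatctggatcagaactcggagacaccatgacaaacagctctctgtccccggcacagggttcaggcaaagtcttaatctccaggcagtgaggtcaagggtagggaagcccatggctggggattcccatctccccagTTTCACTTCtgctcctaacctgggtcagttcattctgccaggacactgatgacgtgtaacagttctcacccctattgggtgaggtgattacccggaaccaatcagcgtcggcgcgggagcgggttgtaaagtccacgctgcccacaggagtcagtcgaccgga
The match lies 90, 150 and 113 bases before the start site in this order. It is in 5 of the 12 promoters found for the MHC list (41.7%), against 7.56% of 27025 promoters and 5.5% of the promoters of genes tested. These 5 belong to H2-K1, H2-D1, H2-Q4, H2-Q6 and H2-Q7, near-copies of each other, so they do not count as independent genes. Among all genes called in bulge-like cells the match is in 5.0% of the promoters of the higher and 6.67% of those of the lower genes. The B2m promoter holds no match to these letters, but it has the stretch gaaactgaaa, a longer form of the element that was not searched. A match is a stretch of letters and says nothing on what binds there.

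Of R-spondin receptor and WNT genes, the pathway of LGR5 itself, few were called. In bulge-like cells 0 of 4 measured R-spondin receptor and ligase genes were called, against 3.32% of all genes called higher and 1.57% lower. For a list of 4 genes this is near the background and does not show that they were equal. Lgr4, the paralog that the follicle expresses broadly, had 373.9 CPM in Lgr5-high and 417.6 CPM in Lgr5-low cells, and Lgr6, the paralog of the upper follicle, had 93.95 and 86.75 CPM. The intervals of both folds held 0, at -0.32 to 0.01 and -0.24 to 0.47. The ligase genes Znrf3 and Rnf43 had log2 folds of -0.17 (-0.56 to 0.22) and 0.35 (-0.27 to 0.98). Of 16 measured WNT genes 1 was called higher and 0 lower, against 3.32% and 1.57% of all genes, with a median log2 fold of 0.16. A share of 1 in 16 is near the background. That gene was Axin2, a feedback target of WNT signalling, at 36.18 CPM in Lgr5-high and 17.48 CPM in Lgr5-low cells, with log2 folds of 1.09 in fl/fl and 1.04 in +/+. Ccnd1, which drives cells into S phase, had 46.34 CPM in Lgr5-high and 80.70 CPM in Lgr5-low cells but passed the 1.5-fold bound in fl/fl only (-1.19 against -0.40).

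Few genes of the other signalling lists were called. Among BMP, TGF-beta and quiescence genes 2 of 20 were called higher and 0 lower, against 3.32% and 1.57% of all genes, with a median of -0.07. They were Bmp2, a ligand that holds stem cells at rest when it comes from the surrounding skin, at 28.57 and 11.43 CPM, and the co-receptor Tgfbr3, at 66.02 and 31.61 CPM, each in Lgr5-high and then Lgr5-low cells. The activin antagonist Fst and the cell cycle inhibitor Cdkn1a had log2 folds of -0.97 and -0.91 but were below 1.5-fold in +/+ cells. All 4 hedgehog genes with the largest folds, Cdon, Gli2, Gli3 and Boc, were higher in Lgr5-high cells, with log2 folds of 0.78, 0.59, 0.48 and 0.46 and a list median of 0.46. Of the 7 measured hedgehog genes 6 had a positive fold in bulge-like cells, against 3611 of 6508 over all genes. There 0 were called, against 3.32% of all genes called higher, while over all cells 4 were called higher, against 7.9%. Of the circadian genes 9 of 11 had a positive fold, against the same 3611 of 6508 over all genes. Of the 11, 2 were called higher, against 3.32% of all genes. These were Clock and Rora, with log2 folds of 0.80 and 0.69, and the list median was 0.38, against 0.05 over all genes.

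Matrix and adhesion genes went both ways. Of 19 measured genes of the bulge niche matrix 2 were called higher and 3 lower, against 3.32% and 1.57% of all genes, with a median of 0.05. Tnc and Thbs1 were the higher ones and Egfl6, Ltbp1 and Aspn the lower ones. Aspn, a small proteoglycan that binds TGF-beta, had 7.16 CPM in fl/fl and 5.02 CPM in +/+ Lgr5-high cells, against 115.8 and 60.87 CPM in Lgr5-low cells. Its log2 fold of -3.95 (-5.04 to -3.03) rests on 10 UMIs in 9 Lgr5-high cells and 146 UMIs in 44 Lgr5-low cells. None of 15 hemidesmosome and integrin genes was called. The integrin genes Itga2 and Itgb6 had log2 folds of 0.65 and -0.81, and Itga6, whose protein was part of the gate, had 0.40.

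Neuronal-type genes, a list that an earlier look at these data had picked for being low in wounds, had 3 of 10 called higher, against 3.32% of all genes, 0 lower and a median of 0.37, against 0.05 over all genes. The called genes were Myoc, Tmtc1 and St6galnac5. The list is no independent evidence of its direction.

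Genes of the immediate early response, which dissociating a tissue can itself trigger, were lower in Lgr5-high cells mainly in the fl/fl pool. Of 19 measured 3 were called lower, against 1.57% of all genes, and 0 higher, and the median log2 fold was -0.59 in fl/fl and -0.02 in +/+ cells. The called genes were Ier2, Klf2 and Nr4a1, with log2 folds of -0.93, -1.16 and -0.80. Fos had 1916 CPM in fl/fl and 1857 CPM in +/+ Lgr5-high cells, against 3066 and 1706 CPM in Lgr5-low cells, so the fl/fl Lgr5-low cells stood apart and the others lay close together. Junb showed the same, with log2 folds of -0.90 in fl/fl and -0.01 in +/+ cells.

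Cell cycle genes were low. Of 20 G1/S genes 3 reached a mean of 20 CPM in bulge-like cells, with a median log2 fold of -0.15. Of these 0 were called, against 3.32% of all genes called higher and 1.57% lower. Pcna, the sliding clamp of DNA replication, had 52.05 CPM in Lgr5-high and 57.83 CPM in Lgr5-low cells. No G2/M gene reached a mean of 20 CPM over all bulge-like cells, and the summed list stood at 69.19 CPM in Lgr5-high and 102.9 CPM in Lgr5-low cells. Mki67, a marker of dividing cells, had 6 UMIs in 6 Lgr5-high cells and 31 UMIs in 14 Lgr5-low cells, and free RNA held it at 163.5 CPM, above either level of 3.81 and 20.85 CPM.

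Phgdh, the first enzyme of serine synthesis and the targeted gene, was lower in the fl/fl pool in both groups. In bulge-like cells it had 12.27 CPM in fl/fl and 53.54 CPM in +/+ Lgr5-high cells, and 12.86 CPM in fl/fl and 41.98 CPM in +/+ Lgr5-low cells. The Lgr5-high over Lgr5-low log2 fold was 0.33 (-0.35 to 1.03), so no difference between the groups was detectable at this depth. None of the 4 measured serine and one-carbon genes, 5 ATF4 targets and 14 glycolysis genes was called in bulge-like cells. Over all genes 3.32% were called higher and 1.57% lower, so in lists this short 0 calls do not show equal levels. The list medians were 0.34, -0.22 and -0.20 in this order, against 0.05 over all genes. Of the 14 glycolysis genes 13 had a negative fold. Over all cells 10 of 16 glycolysis genes were called lower in Lgr5-high cells, against 6.3% of all genes, with a median of -0.98, a difference that moved with the 22 deep cells.

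With the 23 cells kept, the leading genes had the same direction and more list members were called. Over all unwounded cells the log2 folds were 2.70 for Sox5, 2.50 for Myoc and 1.36 for Slit3, and -2.44 for Robo2, -1.85 for Ltbp1, -1.98 for Trpm3 and -0.73 for Egfl6. Of the MHC class I list 6 of 10 measured genes were called lower and 0 higher, with a median of -1.03, and H2-K1 had -1.31. Of the SLIT and ROBO list 3 of 5 were called higher, Srgap3 being the added one, and 1 lower. The other counts are read against 7.9% of all genes called higher and 6.3% called lower over all cells. Higher were 3 of 15 WNT genes, 3 of 20 BMP, TGF-beta and quiescence genes, 4 of 12 circadian genes, 2 of 15 hemidesmosome and integrin genes and 7 of 10 neuronal-type genes. Called lower were 1 of the BMP and 1 of the circadian genes, and 0 of the other 3 lists. The niche matrix list had 4 of 19 called higher and 4 lower, and the immediate early list 3 of 20 called lower, as were 2 of 5 G1/S genes and 3 of 6 ATF4 targets. None of 4 R-spondin receptor and ligase genes and 5 serine and one-carbon genes was called.

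The Lgr5-high share is given for each genotype as a description. Lgr5-high cells made up 22.1% (18.8 to 25.7) of fl/fl and 31.2% (25.6 to 37.2) of +/+ unwounded cells. Lgr5-low cells made up 24.5% (21.1 to 28.2) and 25.9% (20.7 to 31.6), and cells with no Lgr5 UMI 19.2% and 19.4%. Among bulge-like cells the Lgr5-high shares were 21.9% (18.6 to 25.52) in fl/fl and 32.0% (26.31 to 38.15) in +/+. These shares come from Lgr5, the value that chose the cells. Over all cells the intervals of the Lgr5-high shares touch, and in bulge-like cells they do not overlap, but they cover counting error only. With 1 pool per genotype, genotype and pool cannot be told apart, and neither can the mix of follicles that each pool caught.

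Wounded cells, which the split did not use, showed part of the pattern in the same direction and part in the opposite one. Lgr5 was rare there. Its level was 13.29 CPM (fl/fl) against 21.20 CPM (+/+) 3 days after injury, and 6.28 CPM (fl/fl) against 21.18 CPM (+/+) 5 days after it. Cells with at least 2 Lgr5 UMIs were set against cells with none, 47 against 451 in fl/fl and 164 against 1171 in +/+ at 3 days, and 56 against 1400 and 157 against 1290 at 5 days. The cells with Lgr5 were shallower in all 4 pools, as at 3 days in fl/fl, where the medians were 24260 and 45132 UMIs. Of the 12 genes higher in Lgr5-high bulge-like cells, 10 and 9 were at least 1.5-fold higher in wounded cells with Lgr5 at 3 days, in fl/fl and +/+, and 8 and 10 at 5 days. Over all genes the share was 27.8% and 27.3% at 3 days and 26.2% and 27.1% at 5 days.

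The 12 genes lower in unwounded Lgr5-high cells were mostly at least 1.5-fold higher in wounded cells with Lgr5, 9 and 8 of them at 3 days and 11 and 9 at 5 days in fl/fl and +/+. At least 1.5-fold lower was 1 of the 12 in fl/fl at 3 days and 0 in each other pool. Over all genes the share at least 1.5-fold lower was 2.83% and 3.9% at 3 days and 3.08% and 1.87% at 5 days. Robo2 had 156.7 CPM in wounded fl/fl cells with Lgr5 and 52.16 CPM in those without at 3 days, and 316.5 and 55.28 CPM at 5 days. In +/+ cells it had 152.1 and 77.85 CPM at 3 days and 182.6 and 80.50 CPM at 5 days. Egfl6 had 22.13 and 2.62 CPM in fl/fl at 3 days, and was higher with Lgr5 in all 4 pools. The direction of Robo2 and Egfl6 against Lgr5 was therefore opposite in wounded and unwounded cells. Sox5 kept its direction in 3 of 4 pools, with log2 folds of 0.32 and 0.65 in fl/fl and +/+ at 3 days and of -0.41 and 1.11 at 5 days, and the interval in both fl/fl pools held 0. Myoc had 14.75 CPM with Lgr5 and 0.19 CPM without in fl/fl at 3 days, and 15.14 and 0.22 CPM in +/+. Wounded cells were not gated on CD34 or CD200, so they hold bulge cells beside their progeny, and how far bulge cells made up those with Lgr5 was not tested.

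Genes higher in Lgr5-high cells were long and those lower were short. In bulge-like cells the median gene length was 90.78 kb for the 216 higher and 12.39 kb for the 102 lower genes, against 30.42 kb over all genes tested. The lower share of ribosomal protein UMIs in Lgr5-high cells, 16.41% against 18.21%, moved with this, and its part in the calls was not tested. Robo2, Ltbp1 and Trpm3 are exceptions, long genes that were lower.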

How the data were processed

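The deposited matrix holds UMI counts per gene or hashtag and barcode (32285 genes, 2997303 barcodes, 317114087 gene UMIs and 9694124 hashtag UMIs), made by the authors with Cell Ranger 7.1.0, per the file headers, on mm10 and with Seurat 4.3.0 downstream, per the submitters' processing notes. Reads were 28 and 90 bp, per the labels. Conditions were read from the hashtag names in the deposited feature reference.

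Of 9031 barcodes with at least 3000 gene UMIs, 6594 had at most 10% mitochondrial UMIs and 5797 of these a single hashtag (at least 20 UMIs and 70% of hashtag UMIs). The 797 others, doublets of 2 tags among them, were dropped. Doublets within a pool stay, and leaving out the 5% of cells with most UMIs was an alternative. Unwounded cells held 6924296 UMIs. UMIs were summed per group of cells and scaled to CPM. Folds carry exact conditional binomial intervals, levels exact Poisson and shares Clopper-Pearson intervals (scipy 1.17.1, Python 3.11.15), at 95%. They cover counting error only. Where a count was 0, 0.5 UMI was added. TMM factors came from edgeR 4.0.16. The calculation was tested on simulated data. A gene was called at 1.5-fold or more in both pools, among genes of at least 20 CPM.

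The genes named are those with the 12 largest and the 12 smallest log2 folds among genes of at least 50 CPM whose interval left out 0 with the same sign in both pools. Lgr5, Y-linked genes, Xist, Tsix, ribosomal protein genes, mitochondrial genes and predicted genes (Gm and Rik symbols) were left out. Up to 4 members of each list were added. The MHC class I, SLIT and ROBO, and SOX lists were drawn up after values were seen. The members and all gene lists were chosen with earlier results of these data known. The contrast within bulge-like cells was first meant as an alternative, and it was given full weight, with the naming rule applied again, after the data were seen. Free RNA was taken from 65043 barcodes of 100 to 400 UMIs and was not subtracted. Shares in wounded cells used every 4th cell. Positions, gene lengths and promoters were matched by symbol in RefSeq tables of GRCm38.p6.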

Additional observations from a re-analysis of the deposited data

Results flagged for a closer look

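Of the listed genes 7 stood on opposite sides of the split in the genotypes, and none of these differences was tested, since each genotype has 1 pool. Over all unwounded cells 5 immediate early genes were lower in Lgr5-high than in Lgr5-low cells in the fl/fl pool and higher in the +/+ pool. Their log2 folds in fl/fl and +/+ were -0.30 and 0.46 for Btg2, -0.36 and 0.30 for Egr1, and -0.54 and 0.38 for Fos. They were -0.14 and 0.43 for Fosb and -0.32 and 0.41 for Klf4. In bulge-like cells the same held for Atf3, at -0.19 in fl/fl and 0.59 in +/+, and for Jun, at -0.33 in fl/fl and 0.22 in +/+. All 7 belong to the list of genes that cell dissociation also induces. Over all genes tested, opposite directions with both intervals leaving out 0 were seen for 18 of 6570 genes over all cells and for 27 of 6509 in bulge-like cells.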

How the results depend on the processing

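All 24 genes named in bulge-like cells kept their sign under every alternative run, and 17 of the 24 named over all cells did. The naming rule had already asked for the same sign in both pools. The alternatives draw mostly on the same cells, so a kept sign is no independent support. Counts of genes higher and lower over all cells (519 and 414) moved by more than 1.5 times under these settings: 286 and 194 with equal weight per cell, 174 and 86 ranked after thinning, 216 and 102 in bulge-like cells only, 113 and 205 with the cells split into 2 groups only, and 206 and 95 without the 5% of cells with most UMIs. They were 1106 and 936 with no CPM minimum, 1123 and 686 in fl/fl alone, 1240 and 1035 in +/+ alone, 91 and 171 at 2-fold, and 1279 and 877 at a looser fold, and with hashtags of at least 90% the lower count was 275. In bulge-like cells (216 and 102) they were 494 and 292 with hashtags of at least 90%, 49 and 35 with 2 groups only, 642 and 416 with no minimum, 664 and 315 in fl/fl alone, 1064 and 712 in +/+ alone, 31 and 21 at 2-fold, and 756 and 381 at the looser fold.

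Some values over all cells changed sign. With hashtags of at least 90% these were the log2 folds of Stfa1 (0.20), Hbegf (0.84), Sprr2h (0.0073) and Krt14 (0.035), and after thinning those of Hbegf (0.069), Cst6 (0.029) and Krt14 (0.043). In bulge-like cells only they were Krt77 (1.502, from 1 UMI in Lgr5-high and 0 in Lgr5-low cells with 0.5 UMI added, so no sign is read), Areg (0.024), Stfa1 (0.0025), Csta1 (0.14), Cst6 (0.15), Sprr2h (0.00696), Krt14 (0.044) and the upper follicle median (0.10). Without the cells of most UMIs they were Areg (0.18), Stfa1 (0.019), Csta1 (0.17), Krt14 (0.13) and the wound keratin median, which came to 0.0. The causes were not tested. No paired analysis was possible because the pools carry no replicate numbers. The folds were taken within each genotype pool, and both pools had to pass the bound for a call. Counts of Lgr5 UMIs per cell limit the ranking, and animals cannot be told apart from pools.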

Other observations

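Melanocyte markers summed to 721.7 CPM in Lgr5-high and 555.5 CPM in Lgr5-low bulge-like cells, nearly all from Mitf, at 718.6 and 551.4 CPM, while Mlana, Tyr, Kit and Sox10 were at 0. Runx1, a transcription factor that helps start hair growth, had a log2 fold of 0.59 (0.34 to 0.85). It belongs to the hair germ and hair progenitor list. Of the 5 measured genes of that list 2 had a positive and 3 a negative fold, with a median log2 fold of -0.16. None of them was called, against 3.32% of all genes called higher and 1.57% lower. Trp63, the master transcription factor of stratified epithelia, had 924.2 and 630.1 CPM, a log2 fold of 0.55 (0.43 to 0.67). Ccn2, a matricellular YAP target, had 1095 and 1572 CPM, a log2 fold of -0.52. Most of the YAP/TAZ target list went the other way, with 8 of 11 measured genes at a positive and 3 at a negative fold. The list median was 0.08, against 0.05 over all genes, and Thbs1 alone was called, as higher. Lrig1, a receptor-tyrosine-kinase inhibitor of upper follicle stem cells, had 79.98 and 45.06 CPM and was the gene of the upper follicle list called higher, while Krt17 was the one called lower. Sox5 had 29.4% of 180 UMIs in 5 cells in the Lgr5-high group and 68.8% of 32 UMIs in 5 cells in the Lgr5-low group.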
